A study of Mus musculus with 6 samples.

Results

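Complement is a cascade of plasma and tissue proteins in which C3 is cut into C3a, a soluble signal, and C3b, which tags surfaces for uptake. Small fragments such as C3a and C5a act through the anaphylatoxin receptors C3ar1 and C5ar1, and surface-bound fragments of C3b are recognised by complement receptor 3, an integrin made of the Itgam (CD11b) and Itgb2 (CD18) chains. In the spinal cord these receptors are known mainly from microglia and infiltrating myeloid cells, whereas C3 is a familiar product of reactive astrocytes and microglia. Serping1, Cd55, Cd59a and Cr1l encode brakes on the cascade.

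The 9 genes C3, C3ar1, C5ar1, Itgam, Itgb2, Serping1, Cd55, Cd59a and Cr1l were examined here, out of 28162 genes in the table. They were chosen by name for their place in the complement system, beyond C1q and C4b, with the differences between the AAV-NDNF and AAV-GFP libraries already known. All differences between the groups for these 9 genes are therefore a description, not a test. All 9 passed the filter on low values, which asked for a normalized count of 10 or more in 3 or more of the libraries. C3 is itself a cascade component, and the other 8 are receptors or regulators.

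Both groups were SOD1G93A mice, which carry a mutant human superoxide dismutase 1 transgene and develop a disease resembling amyotrophic lateral sclerosis. One group received an adeno-associated virus (AAV) carrying NDNF, a secreted neurotrophic factor, and the other a virus carrying green fluorescent protein (GFP), each into the intrathecal space on postnatal day 74. The ventral lumbar cord was taken on day 104, and 3 libraries per group, described by the submitters as biological replicates, were made from polyadenylated RNA. The sources used here do not give the serotype, promoter or dose of the viruses, nor the age of the animals beyond these days or whether libraries pooled animals. No mouse without the transgene or without a virus was part of the comparison.

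Reads assigned to genes came to between 15335789 and 20060987 per library. Ndnf stood at 5286, 7077 and 674 normalized counts in AAV-NDNF libraries 1 to 3, against 171, 128 and 158 in AAV-GFP libraries 1 to 3, so AAV-NDNF library 3 carried the least of the delivered transcript. Markers of the cord were present, with summed levels of 6 motor neuron genes between 6347 and 7329 after AAV-NDNF and between 6108 and 7419 in controls. A summed list of 14 interferon-stimulated genes was 2020, 2935 and 1812 in the AAV-NDNF libraries, against 7462, 2233 and 7806 in the AAV-GFP libraries, which puts control library 2 apart from controls 1 and 3. Values below are normalized read counts, log2 differences are AAV-NDNF minus AAV-GFP on log2(value + 1), and ± is the SD over 3 libraries unless called a standard error (SE).

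Promoter windows are shown for 3 genes that were lower in every AAV-NDNF library (Itgam, C5ar1 and C3ar1) and for Cd59a, the gene with the higher mean after AAV-NDNF. Each is a window of 300 bases around the gene's start, most of it before the start, from RefSeq (GRCm38.p6), 5′ to 3′ on the gene's strand. For C5ar1 the GENCODE M21 annotation, used below for gene positions, places the start elsewhere, at 16259540. Most of the C5ar1 window lies inside the gene by that annotation. Capitals mark the core bound by PU.1, the myeloid transcription factor (GAGGAA), and the interferon-stimulated response element (GAAANNGAAA), each searched on both strands.
Itgam, chr7:128062390-128062689, plus strand: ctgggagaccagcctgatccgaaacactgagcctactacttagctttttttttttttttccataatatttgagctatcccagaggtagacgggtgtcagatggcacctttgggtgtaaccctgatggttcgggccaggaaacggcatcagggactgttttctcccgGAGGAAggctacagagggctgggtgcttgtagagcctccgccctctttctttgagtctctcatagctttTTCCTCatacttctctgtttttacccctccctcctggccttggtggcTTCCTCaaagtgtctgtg
C5ar1, chr7:16259289-16259588, minus strand: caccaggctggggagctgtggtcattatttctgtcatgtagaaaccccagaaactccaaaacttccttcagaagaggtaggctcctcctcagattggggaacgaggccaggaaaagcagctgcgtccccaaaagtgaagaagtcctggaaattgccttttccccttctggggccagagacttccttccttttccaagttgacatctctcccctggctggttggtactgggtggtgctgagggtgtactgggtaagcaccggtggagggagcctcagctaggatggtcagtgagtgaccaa
C3ar1, chr6:122856108-122856407, minus strand: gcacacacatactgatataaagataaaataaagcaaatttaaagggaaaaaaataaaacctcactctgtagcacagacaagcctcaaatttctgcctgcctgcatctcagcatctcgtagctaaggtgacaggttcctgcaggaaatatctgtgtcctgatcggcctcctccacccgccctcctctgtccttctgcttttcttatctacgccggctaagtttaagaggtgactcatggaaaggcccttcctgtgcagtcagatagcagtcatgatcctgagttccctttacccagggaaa
Cd59a, chr2:104095551-104095850, plus strand: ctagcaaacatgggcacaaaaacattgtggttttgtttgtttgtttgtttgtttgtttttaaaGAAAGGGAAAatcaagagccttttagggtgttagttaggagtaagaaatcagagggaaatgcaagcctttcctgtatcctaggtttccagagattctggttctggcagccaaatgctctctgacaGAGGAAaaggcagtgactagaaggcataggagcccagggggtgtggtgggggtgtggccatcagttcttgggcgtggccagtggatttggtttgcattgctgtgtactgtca

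The Itgam window held the PU.1 core 3 times and the other element 0 times. In the Cd59a window each motif was found 1 time, without overlap. The C5ar1 and C3ar1 windows, like those of C3, Cd55 and Cr1l, held neither motif, nor did any of the 7 windows searched hold the interferon gamma-activated site TTCNNNGAA. Of 32851 promoter windows of this length, 28.3% held the PU.1 core, 3.44% the response element and 8.30% the gamma-activated site. These matches describe letters in a window and say nothing of binding. Serping1 and Itgb2 are named only.

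C5ar1, C3ar1, Itgam, Itgb2 and Serping1 were lower in all 3 AAV-NDNF libraries than in all 3 controls, with mean differences between −53.9% and −31.4% of the control mean. Of all tested genes, 5.50% were lower without overlap in this way. C3 had a lower mean but overlapping groups, and the membrane regulators Cd55, Cd59a and Cr1l overlapped as well, with mean differences from −11.3% to 21.5%. In whole-tissue RNA, fewer cells of a type and less RNA per cell cannot be told apart.

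**Figure D1:**
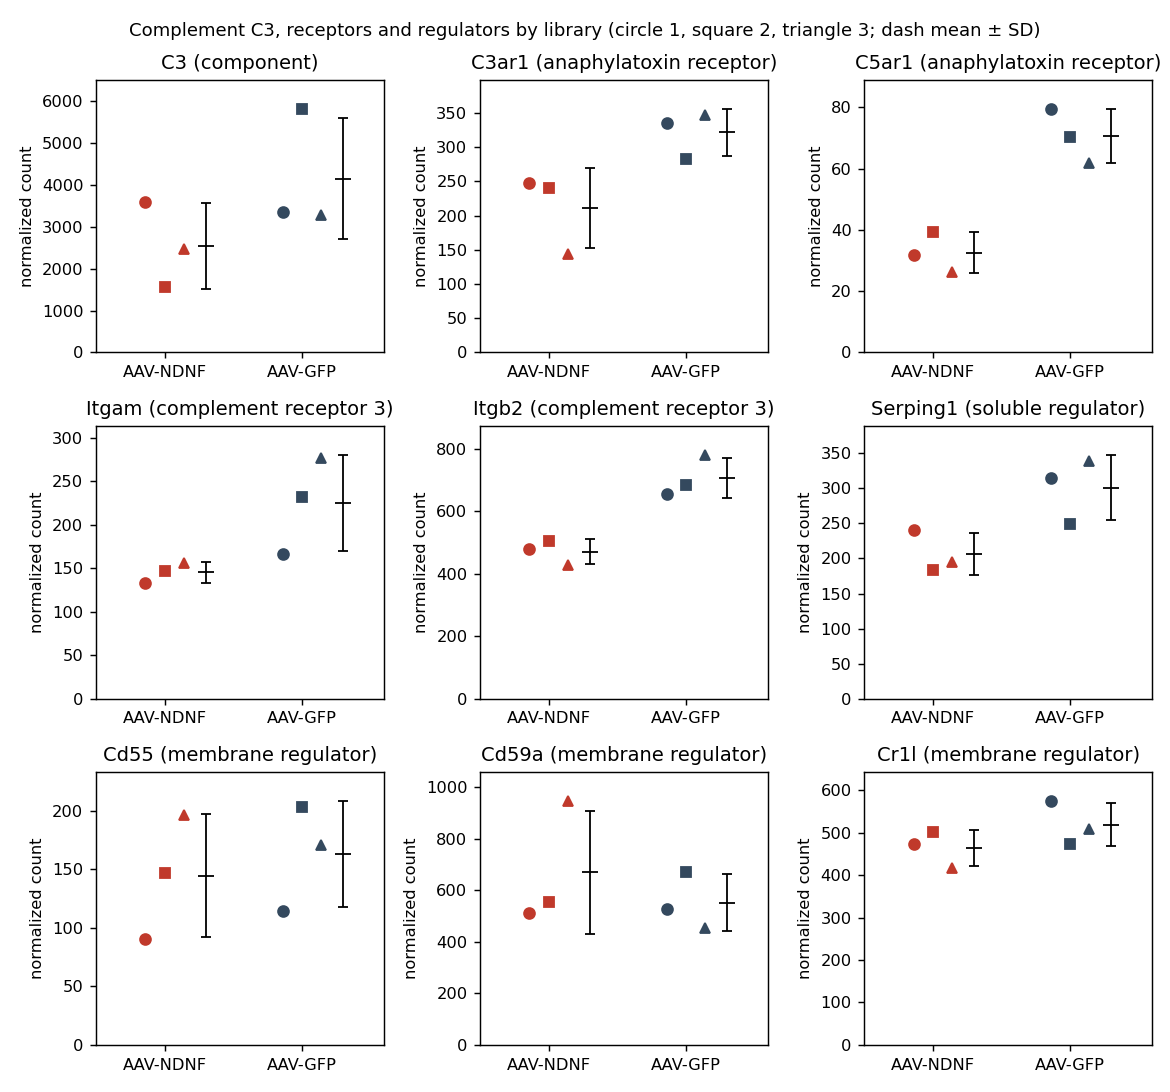
Normalized counts (vertical axes, each from 0) of the 9 genes in AAV-NDNF libraries (red) and AAV-GFP libraries (dark blue); circles, squares and triangles are libraries 1, 2 and 3, and the dash with bars is the mean ± SD (n = 3). The red points of C3ar1, C5ar1, Itgam, Itgb2 and Serping1 all lie below the blue ones, and those of C3, Cd55, Cd59a and Cr1l interleave with them. Among all tested genes 5.50% were lower without overlap.

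C3 (chromosome 17, 57203970 to 57228136, minus strand, mm10) is the protein on which all activation routes converge. It stood at 3594, 1558 and 2468 in AAV-NDNF libraries 1 to 3, against 3363, 5815 and 3277 in AAV-GFP libraries 1 to 3. AAV-NDNF library 1 lay above 2 of the 3 controls, and control library 2 was far above the rest. The means were 2540 ± 1020 after AAV-NDNF and 4152 ± 1441 in controls, a log2 difference of −0.74 (SE 0.32). Without AAV-NDNF library 2 the difference was −0.43, and without control library 2 it was −0.47. A list of 9 astrocyte marker genes summed to 170003, 143779 and 148535 after AAV-NDNF, against 167878, 210918 and 170059 in controls. The libraries with the most and the least C3 were also those with the highest and lowest astrocyte sums. Gfap was the largest part of each sum, at 89726, 75104 and 88131 after AAV-NDNF, against 98536, 128814 and 98168 in controls. Slc1a2 and Aqp4, the next highest genes, also peaked in control library 2. Their lowest values, 26357 and 18015, fell in AAV-NDNF library 3, not in AAV-NDNF library 2, which had the least C3. Of the 9 astrocyte genes 8 had a lower mean after AAV-NDNF. Per 1000 counts of the astrocyte sum, C3 was 21.1, 10.8 and 16.6 after AAV-NDNF, against 20.03, 27.57 and 19.27 in controls, and the groups still overlapped. The part of astrocyte content in the C3 values was not tested.

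C5ar1 (chromosome 7, 16246743 to 16259540, minus strand) encodes the receptor for C5a, a chemoattractant for myeloid cells. Its level was 31.96, 39.4 and 26.3 in the AAV-NDNF libraries, against 79.5, 70.4 and 62.0 in the AAV-GFP libraries. The highest AAV-NDNF value was 0.636 times the lowest control. Means of 32.6 ± 6.58 after AAV-NDNF and 70.6 ± 8.75 in controls gave a log2 difference of −1.10 (SE 0.29), the largest of the 9 genes. These values rest on 24 to 89 reads per library, so counting error alone is sizeable here.

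C3ar1 (chromosome 6, 122847138 to 122856161, minus strand) encodes the receptor for C3a. It was 248, 241 and 143 in the AAV-NDNF libraries, against 335, 282 and 347 in the AAV-GFP libraries. The groups did not overlap, but AAV-NDNF library 3 was well below the other AAV-NDNF libraries. The means were 211 ± 58.5 after AAV-NDNF and 321 ± 34.4 in controls, with a log2 difference of −0.64 (SE 0.22) that was −0.39 without AAV-NDNF library 3. Per kilobase of exon, C3ar1 exceeded C5ar1 in every library, by 4.63, 3.65 and 3.26 times after AAV-NDNF and by 2.52, 2.40 and 3.35 times in controls. That ratio overlapped between the groups through AAV-NDNF library 3 and control library 3.

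Itgam (chromosome 7, 128062640 to 128118491, plus strand) and Itgb2 (chromosome 10, 77530252 to 77565708, plus strand) encode the alpha and beta chains of complement receptor 3. Itgam was 133, 146 and 157 in the AAV-NDNF libraries, against 167, 232 and 277 in the AAV-GFP libraries. The gap was narrow, since the highest AAV-NDNF value was 0.938 times the lowest control. The means were 145 ± 11.9 after AAV-NDNF and 225 ± 55.1 in controls (log2 difference −0.60, SE 0.21). Itgam overlaps the gene model Gm49368 in the annotation and shares 66.3% of its stretches of 50 bases with it, so its counts are uncertain where the authors' counting could split or discard such reads.

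Itgb2, which also pairs with other leukocyte alpha chains, was 479, 506 and 428 in the AAV-NDNF libraries, against 655, 684 and 780 in the AAV-GFP libraries. The groups were well apart, and within each group the highest library was only 1.18 and 1.19 times the lowest. The means were 471 ± 39.3 after AAV-NDNF and 706 ± 65.2 in controls, with a log2 difference of −0.58 (SE 0.13). Itgb2 per kilobase was 5.37 ± 0.764 times Itgam after AAV-NDNF and 5.32 ± 0.994 times in controls. The proportion of the 2 chains thus differed between the groups by less than the spread between libraries.

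Serping1 (chromosome 2, 84765387 to 84775444, minus strand) encodes C1 inhibitor, the secreted serpin that blocks the C1r and C1s proteases and is itself induced by interferons. It was 241, 184 and 195 in the AAV-NDNF libraries, against 315.1, 249.2 and 338.6 in the AAV-GFP libraries. The lowest control, library 2, was only just above the highest AAV-NDNF library, a ratio of 0.965 between them. The means were 206 ± 30.1 after AAV-NDNF and 301 ± 46.3 in controls (log2 difference −0.54, SE 0.18). With 1 library left out the difference ranged from −0.67, without control library 2, to −0.45, without control library 3. Control library 2 was also the control with the low interferon sum given above. Per 1000 counts of that sum Serping1 was 119, 62.5 and 108 after AAV-NDNF, against 42.2, 112 and 43.4 in controls. All 14 interferon genes had a lower mean after AAV-NDNF, but only 3 were lower without overlap, beside 5.50% of all tested genes. Their sum overlapped between the groups through control library 2. The part of these genes in the Serping1 difference was not tested. For other cell types known to express Serping1, only summed marker lists overlapped between the groups. The fibroblast and meningeal sum was 1721 to 1929 after AAV-NDNF and 1838 to 1943 in controls. The endothelial sum was 5440 to 6798 after AAV-NDNF and 5750 to 6573 in controls. Single endothelial genes went both ways, with lower means for 4 of 8. Cldn5 was lower without overlap, at 352, 441 and 283 after AAV-NDNF, against 504, 494 and 465 in controls. Ly6c1 was higher without overlap, at 717, 712 and 857 after AAV-NDNF, against 592, 610 and 567 in controls. The part of these cell types in the Serping1 difference was not tested.

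The membrane regulators protect host cells. Cd55 (decay-accelerating factor; chromosome 1, 130439027 to 130462744, minus strand) takes apart the convertases that cut C3 and C5. It was 90.8, 146 and 196 in the AAV-NDNF libraries, against 114, 203 and 171 in the AAV-GFP libraries. The first library was the lowest of each group, the ranges lay almost on top of each other, and the log2 difference was −0.20 (SE 0.30). Its sign turned to 0.0969 without AAV-NDNF library 1, and it was −0.0214 without control library 2. An antisense gene, Gm16083, overlaps Cd55 and shares 54 of its 4801 stretches of 50 bases. Without a stated strand setting, reads from those stretches cannot be told apart. Cd55b, which had no row in the table, shares 384 of them.

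Cd59a (chromosome 2, 104095801 to 104115354, plus strand) stops assembly of the membrane attack complex. It was 511, 556 and 945 in the AAV-NDNF libraries, against 529, 672 and 455 in the AAV-GFP libraries. AAV-NDNF library 3 alone lay above all controls. The means were 671 ± 239 after AAV-NDNF and 552 ± 110 in controls (log2 difference 0.24, SE 0.22), and without AAV-NDNF library 3 the sign turned to −0.0325. Its paralog Cd59b was low, at 17.1 ± 3.43 after AAV-NDNF and 20.4 ± 5.45 in controls, and shares 3.87% of the 50-base stretches of Cd59a.

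Cr1l (Crry; chromosome 1, 195097382 to 195131586, minus strand) is the broadly expressed rodent inhibitor of C3 convertases. It was 473, 501 and 417 in the AAV-NDNF libraries, against 574, 474 and 509 in the AAV-GFP libraries. The groups overlapped through control library 2. The means were 464 ± 42.6 after AAV-NDNF and 519 ± 50.7 in controls, a log2 difference of −0.16 (SE 0.13). It was −0.0884 without AAV-NDNF library 3 and −0.0876 without control library 1.

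Across all 17480 genes tested, limma called 0% at a Benjamini-Hochberg adjusted p under 0.05 and 0 of the 9 genes. The smallest adjusted p among the 9 was 0.442, for Itgb2, and 6 of the 9 had an unadjusted p under 0.05 with a lower mean after AAV-NDNF, where 3.53% of all tested genes did. The 5 genes that were lower without overlap stand beside 5.50% of all tested genes. The edgeR quasi-likelihood test on recovered reads called 0 of the 9. The authors' deposited table lists 1 of the 9, Itgb2, with a log2 fold change of −0.58 and a DESeq2 adjusted p of 0.0492, and it lists 0.266% of its genes under 0.05. The median log2 difference was −0.58 over the 9 genes and 0.0008 over all tested genes. Since the genes were picked with this contrast in view, nothing is read from these shares.

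**Figure D2:**
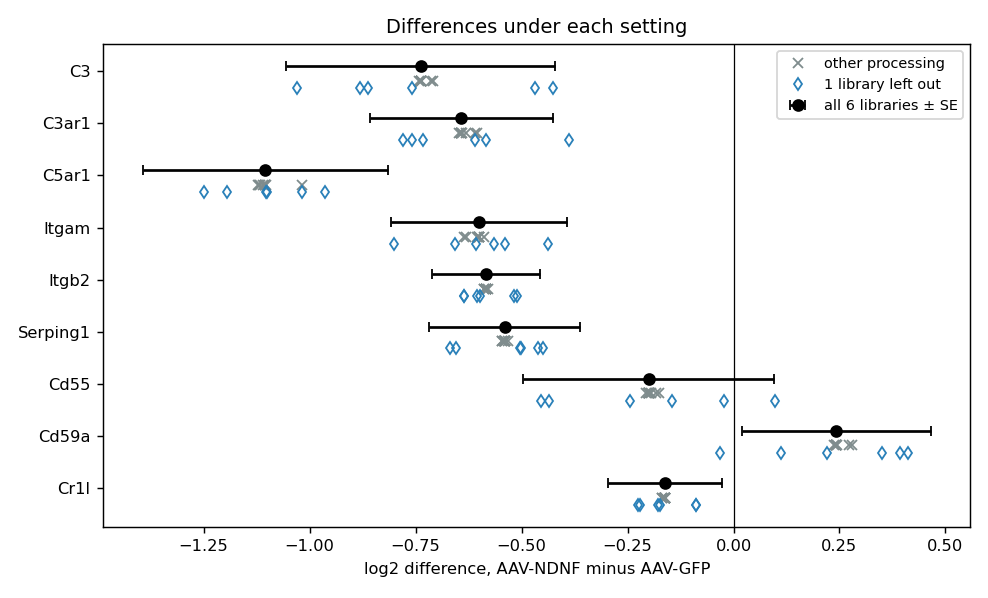
Log2 difference of each of the 9 genes, AAV-NDNF minus AAV-GFP (horizontal axis); black points with bars are all 6 libraries ± SE, crosses other scalings, filters, pseudocounts, tools and the replicate block, and open diamonds the fits with 1 library left out. C3, C3ar1, C5ar1, Itgam, Itgb2, Serping1 and Cr1l stay below 0 throughout, whereas Cd55 reaches 0.10 and Cd59a −0.0325 when 1 library is left out.

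Per kilobase of exon, which allows levels of different genes to be compared, the order in controls was C3 at 807 ± 280, Cd59a at 305 ± 61.0, Itgb2 at 231 ± 21.3, Serping1 at 129 ± 19.9, C3ar1 at 74.7 ± 7.98, Cr1l at 50.2 ± 4.90, Itgam at 44.8 ± 10.98, Cd55 at 33.5 ± 9.28 and C5ar1 at 27.5 ± 3.41 normalized counts per kilobase (n = 3). Neighbours whose control ranges overlapped were Cd59a with Itgb2, Cr1l with Itgam, Itgam with Cd55, and Cd55 with C5ar1. After AAV-NDNF, C3 at 494 ± 198 and Cd59a at 370 ± 132 overlapped, and C5ar1, at 12.7 ± 2.56, lay apart below all the others. The place of Cr1l rests on its 10349 annotated exon bases, the union over all its transcripts. The place of Itgam is uncertain, because 66.3% of its 50-base stretches are shared with Gm49368 and such reads may have been discarded.

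**Figure D3:**
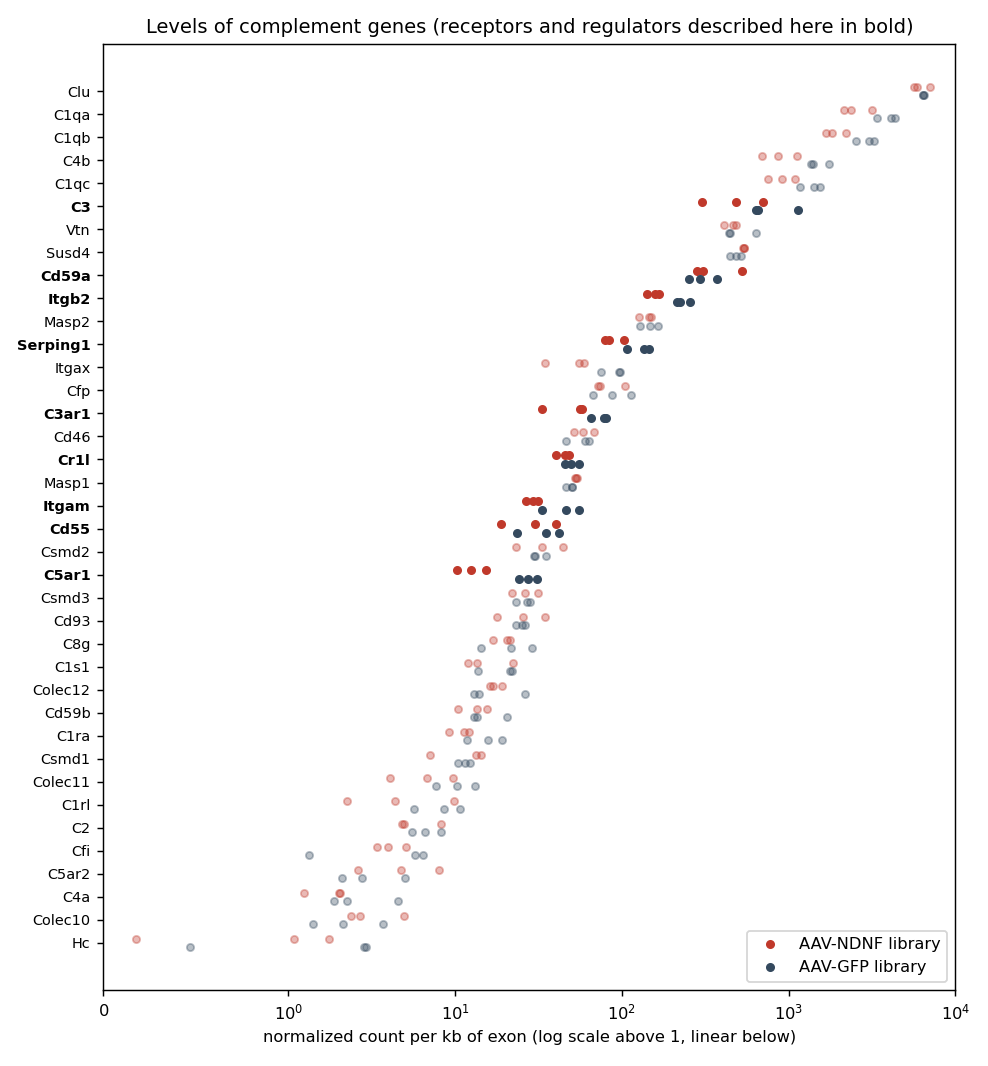
Normalized count per kilobase of annotated exon (log axis above 1, linear below) for the complement genes that passed the filter, all but 1 of 39, ordered by the control mean; each gene has 3 AAV-NDNF points (red, upper) and 3 AAV-GFP points (dark blue, lower), and the 9 genes described are in bold and full colour. C3 is the highest of the 9, at rank 6 of the 39 in controls, and C5ar1 the lowest, at rank 23.

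Microglial content was set beside the receptors, because the receptor genes are known from those cells. A list of 13 genes of homeostatic microglia, among them Csf1r and Cx3cr1, summed to 14949, 14953 and 17159 in the AAV-NDNF libraries, against 20510, 20067 and 20011 in the AAV-GFP libraries. All 13 had a lower mean after AAV-NDNF, 7 of them without overlap (5.50% of all tested genes were lower without overlap), and the sum was 0.777 times the control mean. A list of 15 genes of disease-associated microglia summed to 35167 to 44645 after AAV-NDNF and 47033 to 50753 in controls, with lower means for all 15, 11 of them without overlap. Most of that sum was Ctsb and Ctsd, with means of 18830 and 6698 after AAV-NDNF and 21956 and 9933 in controls. Neutrophils also carry complement receptor 3. Each of the 9 neutrophil markers in the table stayed under 10 normalized counts in every library, and their sums were 6.57 to 21.4 after AAV-NDNF and 2.93 to 20.53 in controls. The 10 monocyte and border macrophage genes summed to 141 to 159 after AAV-NDNF and 140 to 256 in controls, with lower means for 8 of 10.

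Expressed per 1000 counts of the homeostatic microglia sum, C5ar1 alone of the 4 receptor genes kept the groups apart. It was 2.14, 2.64 and 1.53 after AAV-NDNF, against 3.87, 3.51 and 3.10 in controls, a mean 39.8% below the control mean. C3ar1 was 16.6, 16.1 and 8.36 after AAV-NDNF, against 16.3, 14.1 and 17.3 in controls. Itgam was 8.89, 9.79 and 9.13 after AAV-NDNF, against 8.14, 11.5 and 13.8 in controls, and Itgb2 was 32.01, 33.8 and 25.0 after AAV-NDNF, against 31.9, 34.1 and 39.0 in controls. The groups of these last 3 genes overlapped on that scale. Cd59a was 34.2, 37.2 and 55.1 after AAV-NDNF, against 25.8, 33.5 and 22.7 in controls, so on that scale each AAV-NDNF library was above each control, with a lower divisor after AAV-NDNF. Whether the receptor differences come from the number of microglia was not tested.

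**Figure D4:**
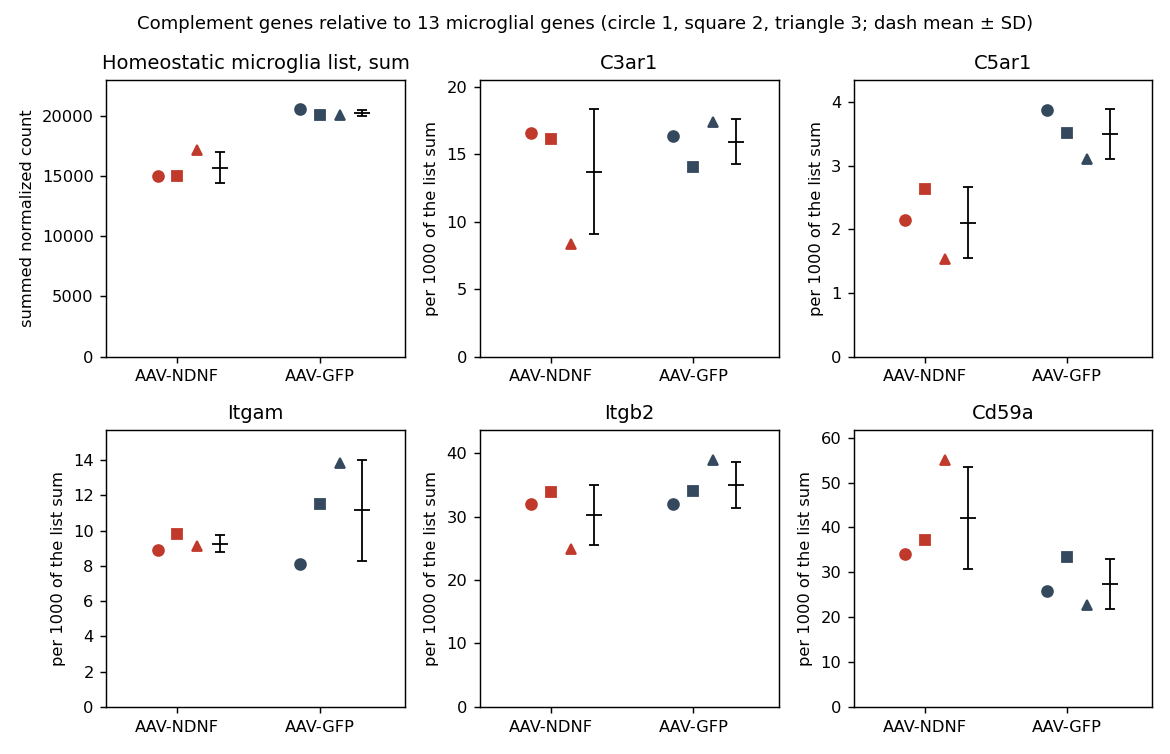
Summed normalized counts of 13 homeostatic microglia genes (first panel) and 5 of the complement genes per 1000 counts of that sum, in AAV-NDNF (red) and AAV-GFP (dark blue) libraries; circles, squares and triangles are libraries 1, 2 and 3, and the dash with bars is the mean ± SD (n = 3). The list sum and C5ar1 are apart with AAV-NDNF lower, C3ar1, Itgam and Itgb2 overlap, and Cd59a is apart with AAV-NDNF higher.

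The rest of the complement system was followed through a list of 50 other genes, of which 42 had a row in the table and 30 passed the filter. Limma called 0 of the 30 in either direction, 6 had an unadjusted p under 0.05 with a lower mean and 0 with a higher one, beside 3.53% and 1.15% of all tested genes. The authors' deposited table lists 3 of the 30 under 0.05, beside 0.266% of its genes. Their DESeq2 adjusted p-values were 0.00962 for C4b, 0.0177 for C1qb and 0.0360 for C1qa. Groups did not overlap for 5 genes with lower values after AAV-NDNF, beside 5.50% of all tested genes, and for 2 with higher values, beside 4.26%. The 5 lower ones were the C1q chains C1qa, C1qb and C1qc, which start the classical pathway, C4b, its next component, and Itgax, the alpha chain of complement receptor 4, which pairs with Itgb2. Itgax was 285, 266 and 165 after AAV-NDNF, against 458, 361 and 466 in controls, and its log2 difference was −0.87 (SE 0.21, limma adjusted p = 0.53). C4b was 6413, 4884 and 3950 after AAV-NDNF, against 7992, 9989 and 7775 in controls, an uncertain value because 34.6% of its 50-base stretches are shared with C4a.

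Among the remaining genes, Susd4, a membrane regulator of the brain, was 2067, 2090 and 2064 after AAV-NDNF, against 1866.7, 1707.3 and 2000.6 in controls, and Masp1, a lectin pathway protease, was 528, 518 and 514 after AAV-NDNF, against 491, 452 and 493 in controls. These were the 2 genes higher without overlap, with log2 differences of 0.16 and 0.12. Cd46 averaged 452 ± 63.0 after AAV-NDNF and 429 ± 69.9 in controls. C5ar2, the second C5a receptor, was 18.2 ± 9.68 after AAV-NDNF and 11.7 ± 5.45 in controls, on few reads. Of the alternative pathway genes, Cfp (properdin) averaged 145 ± 30.9 after AAV-NDNF and 154 ± 39.6 in controls, and Cfb and Cfd did not pass the filter. Of the terminal pathway genes, C8g averaged 29.2 ± 3.54 after AAV-NDNF and 32.2 ± 10.7 in controls, and Hc (mouse C5) 6.27 ± 4.93 after AAV-NDNF and 12.98 ± 8.70 in controls. The groups of these 3 tested genes overlapped. The median log2 difference of the 30 genes was −0.11.

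**Figure D5:**
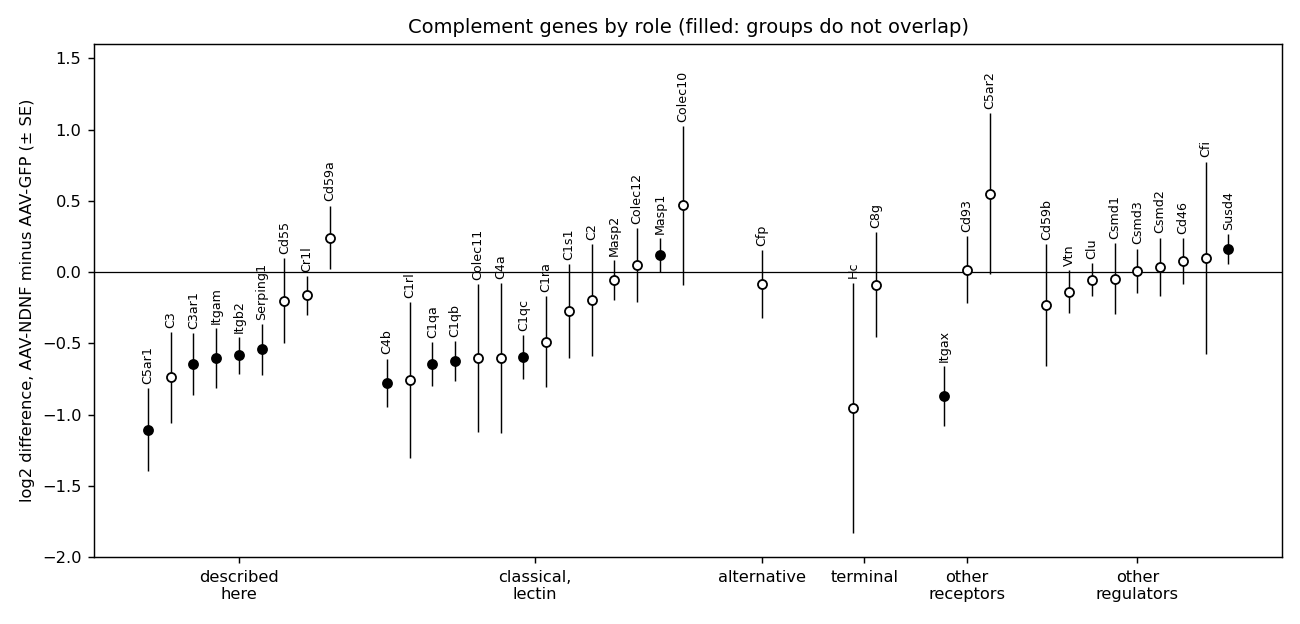
Log2 difference, AAV-NDNF minus AAV-GFP, with its SE (vertical axis) for the 9 genes described and all but 1 of the 30 other complement genes tested; the 9 form the first group and the others are grouped by role; filled points are genes whose groups do not overlap. Receptors C3ar1, C5ar1, Itgam and Itgb2, the C1q chains, C4b and Itgax lie below 0 with groups apart, and among the regulators Serping1 lies below 0 and Susd4 above 0 with groups apart.

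Genes whose profile over the 6 libraries was nearest to each member were taken by the smallest root-mean-square difference of centred log2 values. The search covered the 17480 tested genes except the 9 described here and genes with Gm, Rik or mt- names, all sharing the same libraries. For Itgb2 they were Fyb, an adaptor of leukocytes, Dennd1c and Paqr5, at 0.05, 0.05 and 0.07 log2 units, where the profile of Itgb2 itself varied by 0.31. For C3ar1 they included Myof and Ptpn22, a leukocyte phosphatase, both at 0.09. For C5ar1 they were Uba7, the activating enzyme of ISG15, Arhgap25 and the phagocytic receptor kinase Mertk, at 0.13 to 0.18. Serping1 was nearest to Lair1, an inhibitory collagen receptor of leukocytes, Cdsn and Zc3hav1, an antiviral zinc finger protein, at 0.08. Cr1l was nearest to Slc37a3, Cln3, a lysosomal membrane protein, and Zfp560, at 0.02 to 0.03, and varied little itself, by 0.14. C3 was nearest to Traf1, Aqp9 and Aplnr at 0.15 to 0.16, where C3 varied by 0.57. The nearest to Itgam were Ifitm2, Ndufa4l2 and Naalad2, at 0.10 to 0.12. The nearest to Cd55 were Spata21, Nsmce1 and Snhg15, at 0.11 to 0.12. The nearest to Cd59a were Gpx4-ps2, Tmem60 and Cebpd, at 0.09 to 0.10. Among the 9 genes the closest pairs were Itgb2 with Serping1 (0.18), Itgam with Itgb2 (0.19) and C3ar1 with Itgb2 (0.21).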

How the data were processed

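Per the submitters' processing notes the tools were DESeq2, HTSeq, HISAT2 and cutadapt, with build mm10. Their versions, the annotation and the strand setting are not given in the sources used here. Per the file headers and values, the deposited sample columns are a signal, namely read counts per gene that the authors divided by 1 size factor per library, and 100% of values were whole multiples of 1 read (tolerance 0.001), so reads were recovered. The same deposited table holds the authors' DESeq2 output, with a log2 fold change, its SE, a Wald score and p-values per gene.

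The main test was limma (3.58.1, R 4.3.3; trend and robust) on log2(value + 1), two-sided, over genes with at least 10 in at least 3 libraries, with Benjamini-Hochberg adjustment over 17480 genes. Alternatives were edgeR 4.0.16 and DESeq2 1.42.0 on recovered reads, other scalings, filters and pseudocounts, a replicate block and omission of each library. The code was tested on simulated counts. Gene positions and exon lengths were read from the GENCODE M21 annotation of mm10, where 98.1% of symbols matched. The genes described and all lists were chosen with earlier results of these data known. The text names all 9 genes, other complement genes that passed the filter, leading marker genes, and the 3 nearest profiles per gene. A few genes that these rules cover are not reported here; they stay in the counts and sums. Every pair of libraries differed by more than counting noise. Libraries are labelled biological replicates; where separate animals are not stated, p-values measure only the spread between these libraries. Library depth was 15335789 to 20060987 assigned reads, which bounds the precision of low genes.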

Additional observations from a re-analysis of the deposited data

How the results depend on the processing

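The direction of C3, C3ar1, C5ar1, Itgam, Itgb2, Serping1 and Cr1l was the same under all 15 alternatives. Not all of these could have changed it. The other filters and the replicate block leave the log2 difference itself as it was. For C3ar1, C5ar1, Itgam, Itgb2 and Serping1, whose groups did not overlap, leaving out 1 library could not turn the sign. Without single libraries Cd55 ranged from −0.4539 to 0.0969, turning positive without AAV-NDNF replicate 1, and Cd59a from −0.0325 to 0.4113, turning negative without AAV-NDNF replicate 3; the cause was not tested. None of the 9 genes was called in limma under any setting or in edgeR; DESeq2 called 1, Itgb2 (adjusted p 0.0358; over all alternatives its adjusted p was 0.0358 to 1). Of the other complement genes DESeq2 called 4, limma called 1 without AAV-NDNF replicate 3, and 0 without any other single library. Over all genes, 0 calls became 3 with no low-value filter, 55 with DESeq2, 6 with the replicate block, and 0 to 43 without single libraries (43 without AAV-GFP replicate 2, 11 without AAV-NDNF replicate 3). In an alternative added after seeing the data, 5 to 6 of the 9 genes were lower without overlap when 1 library was left out. The share of all genes was 8.11% to 13.3%. Omission of a library cannot bring overlap to groups that were apart. The 5 genes without overlap in the full data were therefore bound to remain, which says nothing of stability.

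Same-numbered libraries deviated from their group means with correlations of −0.09, 0.05 and 0.08, and 2 of 6 libraries correlated best with their own number, so the numbers were not taken to pair samples; the replicate block called 0 of the 9 genes. Depth limits C5ar1 most, at 24 reads in its lowest library.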

Other observations

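Itgb2 also pairs with the alpha chain Itgal to form LFA-1, an adhesion receptor of lymphocytes and other leukocytes. Itgal, named here after its values were seen, was 11.8, 23.7 and 10.95 in the AAV-NDNF libraries, against 54.5, 61.6 and 51.3 in the AAV-GFP libraries. The groups did not overlap, and the AAV-NDNF mean was 0.277 times the control mean, on 10 to 63 reads per library. Its log2 difference was −1.86 (SE 0.39), with a limma adjusted p of 0.364 over all genes, and the authors' deposited table gives a DESeq2 adjusted p of 0.0350. Itgad, the alpha chain beside Itgam and Itgax on chromosome 7, was 19.3, 12.4 and 21.9 after AAV-NDNF, against 24.1, 18.6 and 52.3 in controls, where the groups overlapped. A list of 9 T and NK cell genes summed to 86.6, 76.6 and 82.2 after AAV-NDNF, against 210, 93.8 and 142 in controls, with lower means for all 9. These genes were near the floor. Only 3 of the 9 passed the filter, 0 of those were lower without overlap, and Gzmb and Klrb1c stayed under 10 in every library.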
